A study of Mus musculus with 14 samples.

Results

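Afp, the gene of alpha-fetoprotein, was followed through neurospheres of adult and embryonic mouse central nervous system by its probe sets 1416645_a_at, 1416646_at and 1436879_x_at, which are 3 of the 45101 probe sets on the array. Afp is 1 of the 18194 genes that the annotation names by a single symbol. The platform annotation assigns 5 probe sets to Afp, and the other two are described where they bear on detection. The gene was picked because its signal in adult neocortical spheres was high in earlier results of these data, so every value that sets neocortex against another group is given as a description without a test. Tests are given for differences that leave out the neocortical mean. The striatal and SVZ arrays were the other side of the contrasts used in that choice. Tests that include them are therefore not independent of it. The neocortical arrays still enter the shared variance of the fit, and where a fit without them changes a call, both values are given.

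RNA came from secondary neurospheres, floating cell aggregates grown from dissociated neural tissue and passaged, of wild-type CD-1 mice. Adult spheres came from 3 regions with 3 samples each, namely neocortex, striatum and the zone of dividing cells that lines the lateral ventricle, the subventricular zone or SVZ. Embryonic spheres (E14.5) came from dorsal forebrain (2 samples), ventral forebrain (2 samples) and spinal cord (1 sample). The adult age in weeks, the sex and the number of animals behind a sample are not given in the labels, no treatment was applied, and each of the 14 samples was hybridised to 1 Affymetrix GeneChip mouse genome array.

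Alpha-fetoprotein is a secreted glycoprotein of the albumin gene family, made mainly by the yolk sac and the fetal liver and largely shut off in liver after birth. In rodents it binds oestrogens in fetal plasma, which keeps maternal oestrogen from the developing brain, and it also carries fatty acids. In mouse liver the zinc finger and homeobox protein Zhx2 and the zinc finger protein Zbtb20 repress the gene after birth, and hepatic factors such as the Foxa proteins and C/EBP proteins activate its promoter.

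The promoter is shown first because the liver regulators discussed below act on it. The RefSeq window of 300 bases, from 250 bases before to 50 after the annotated start, lies at chr5:90490464-90490763 on the plus strand of GRCm38.p6. Alb, the albumin gene next to Afp, is printed beside it at chr5:90460620-90460919, also on the plus strand. Capitals mark letters searched on both strands, with no overlap between marked matches.
Afp: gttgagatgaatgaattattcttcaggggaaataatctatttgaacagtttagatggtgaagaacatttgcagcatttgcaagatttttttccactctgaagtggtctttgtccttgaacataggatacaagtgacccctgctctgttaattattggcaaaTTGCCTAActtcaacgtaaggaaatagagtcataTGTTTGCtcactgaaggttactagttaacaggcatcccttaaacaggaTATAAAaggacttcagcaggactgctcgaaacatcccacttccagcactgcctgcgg
Alb: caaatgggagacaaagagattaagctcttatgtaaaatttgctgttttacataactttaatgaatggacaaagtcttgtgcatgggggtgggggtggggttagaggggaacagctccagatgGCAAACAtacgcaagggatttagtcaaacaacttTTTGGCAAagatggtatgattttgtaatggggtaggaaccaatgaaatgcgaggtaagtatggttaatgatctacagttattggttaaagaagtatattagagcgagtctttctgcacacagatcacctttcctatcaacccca

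In the Afp window the C/EBP letters TTGCNNAA began at -89, the FOXA letters TGTTTGC at -55 and TATAAA at -7 relative to the annotated start. The Alb window held, on the minus strand, the C/EBP letters at -94 and TGTTTGC at -128. Of 32544 promoter windows of this length, 10.8% held TTGCNNAA, 5.08% TGTTTGC and 13.6% TATAAA. The FOXA letters TGTTTAC, present in 3.66% of windows, were not found in either. These are matches of letters and no record of binding.

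The deposited value is a linear signal per probe set and array, with a detection p-value beside it that is low for signals above background. A probe set is called detected here at a detection p under 0.05. By this measure Afp was highest in adult neocortical spheres, intermediate in striatal spheres and near or below background in SVZ and embryonic forebrain spheres. The spinal cord array stood above the striatal arrays at 2 of the 3 probe sets. No level of one probe set is set against that of another, since probe sets differ in binding.

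For 1416645_a_at the neocortical signals were 4500.6, 3648.3 and 10536.5 in samples 1, 2 and 3. The striatal signals were 211.1, 390.0 and 228.0, and the SVZ signals were 13.5, 1.3 and 1.9. Every neocortical array lay above every striatal array, and every striatal array above every SVZ array. In dorsal forebrain spheres the signals were 1.1 and 2.7, in ventral forebrain spheres 9.0 and 1.4, and in the spinal cord array 650.8. This probe set was detected on all 3 neocortical and all 3 striatal arrays and in spinal cord, and on none of the SVZ or forebrain arrays, where the detection p was 0.568 to 0.951. Neocortex averaged 6228 ± 3755, striatum 276.4 ± 98.8 and SVZ 5.6 ± 6.9 (SD, n = 3 each).

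For 1416646_at the neocortical signals were 1082.6, 1276.0 and 2361.0, and the striatal signals were 159.3, 137.2 and 107.1. The SVZ signals were 28.7, 14.1 and 30. The order of the adult regions was again neocortex, striatum, SVZ without overlap of arrays. Dorsal forebrain gave 11.8 and 17.9, ventral forebrain 12.5 and 102.6, and spinal cord 64.8. The striatal arrays were only just detected, with detection values from 0.024 to 0.030, and the spinal cord array was not, with a detection value of 0.246. Ventral sample 2, at 102.6 and not detected, lay just under the lowest striatal array.

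For 1436879_x_at, whose suffix in the maker's naming warns that some of its probes can match other transcripts, the neocortical signals were 998.4, 1359.8 and 2152.9. Striatal arrays gave 277.7, 446.2 and 258.5, and SVZ arrays 31.4, 30.8 and 19.1. These regions did not overlap either. Dorsal forebrain gave 12.2 and 43, ventral forebrain 63.2 and 9.3, and spinal cord 491.4, above all striatal arrays. Here the SVZ arrays counted as detected on 3 of 3 arrays (detection p 0.008 to 0.030), as did 1 of 2 dorsal and 1 of 2 ventral arrays, where the signals of SVZ and forebrain overlapped.

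**Figure D1:**
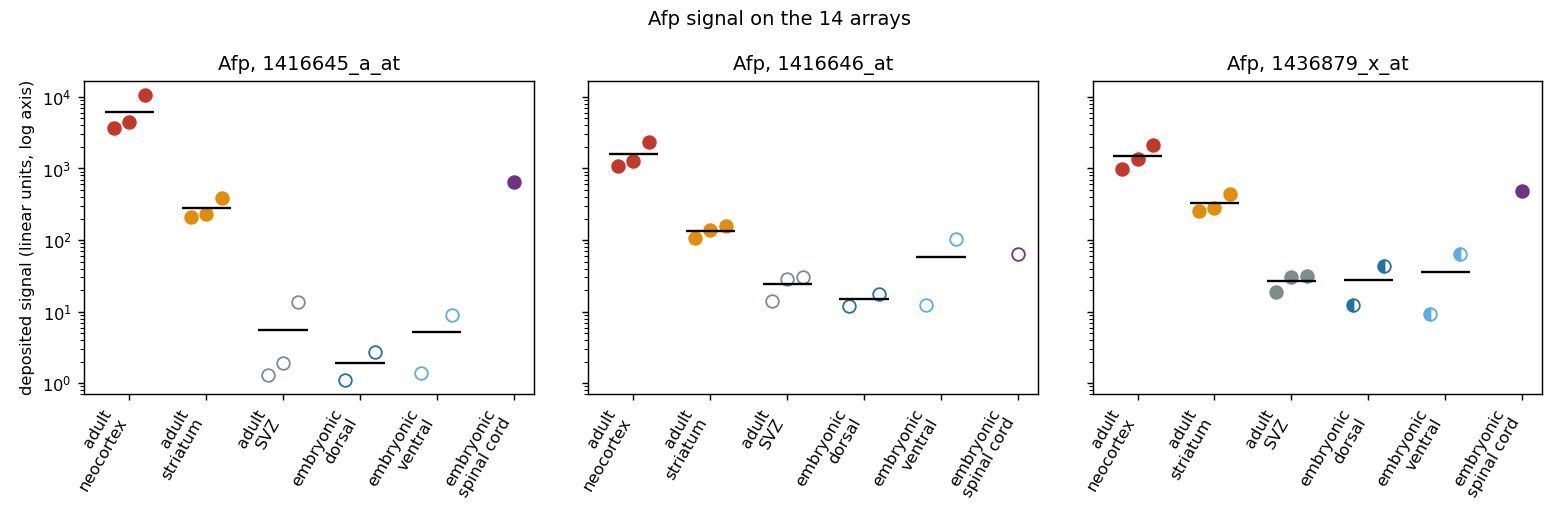
Deposited signal (linear units on a log axis) of the 3 Afp probe sets on each array, grouped by origin of the spheres; filled points mark groups detected on every array, half-filled points groups detected on 1 of 2 arrays, open points groups detected on none, and lines are group means. Neocortical arrays sit from 998.4 to 10536.5 across the panels, striatal arrays below them, and SVZ and embryonic forebrain arrays lowest, with the single spinal cord array near or above the striatal level in the left and right panels.

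The remaining Afp probe sets carried little signal and were looked at after the values of the first ones were known. The probe set 1436880_at was detected on 0 of 14 arrays, with signals from 4.4 to 86.5. The probe set 1436881_x_at was detected on 1 of 14, a neocortical array, with a detection p of 0.030. It averaged 149.6 ± 102.9 on neocortical, 120.2 ± 27.9 on striatal and 16.6 ± 17.1 on SVZ arrays (SD, n = 3 each), so neocortex and striatum were not separated there. Thus 3 of 5 annotated probe sets showed the regional order.

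The 3 probe sets that carried signal moved together over the arrays. On the log2 scale, Pearson's r between 1416645_a_at and 1416646_at was 0.928 over 14 arrays and 0.987 over the 9 adult arrays. Between 1416645_a_at and 1436879_x_at it was 0.979 and 0.983, and between 1416646_at and 1436879_x_at it was 0.872 and 0.955. The points share arrays and RNA and fall into groups by region, so r mainly reflects the steps between regions. Where they parted was at low signal, in spinal cord, which 1416646_at did not detect, and in SVZ, which only 1436879_x_at detected.

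The size of the neocortical excess differed by probe set. Differences below are means of log2(signal + 27) after centring each array on its median, and understate changes of dim probe sets. Against striatum, neocortex was higher by 4.16 ± 0.41 SE at 1416645_a_at (17.8-fold), by 3.14 ± 0.44 at 1416646_at (8.83-fold) and by 1.98 ± 0.43 at 1436879_x_at (3.95-fold). Against SVZ the differences were 7.24, 4.69 and 4.55, which are at least 109-fold, at least 25-fold and 23.4-fold. Against the mean of dorsal and ventral forebrain they were 7.52, 4.78 and 4.72, which are at least 136-fold, at least 27-fold and 26.4-fold. The bounds apply where the dimmer group was detected on no array, and set it, array by array, at its own signal or at the lowest signal of any probe set detected on all arrays of its group, whichever was higher. Detection limits differ by probe set, and this floor is the lowest over all of them. Folds given as at least, here and below, thus depend on that floor and are no strict lower bounds.

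The neocortical excess over striatum was present within each sample number and varied among them. For 1416645_a_at it was 4.07, 3.05 and 5.36 on the log2 scale in numbers 1, 2 and 3. The other probe sets gave 2.39, 2.90 and 4.14 (1416646_at) and 1.57, 1.46 and 2.92 (1436879_x_at). Number 3 had the widest gap at each probe set, and neocortex sample 3 had the highest Afp signal of all arrays at each. That array also differed from samples 1 and 2 at Ttr, which encodes transthyretin, a thyroid hormone carrier of choroid plexus and liver and was singled out after its values were seen. Its signal was 31783.3 there and 25.1 and 24.0 on the other neocortical arrays, against 14346.3 and 36054.1 in dorsal forebrain. Without neocortex sample 3 the excess of Afp over striatum at that probe set was 3.70.

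The comparison of striatal with SVZ spheres asks whether Afp varied between adult regions apart from neocortex, and it was tested. Both groups entered the contrasts with neocortex by which the gene was picked, so these p-values are not independent of that choice. Afp was higher in striatal spheres by 3.08 ± 0.41 SE on the log2 scale at 1416645_a_at, at least 6.11-fold (limma, adjusted p = 0.00311, higher in 3 of 3 arrays than in any SVZ array). At 1436879_x_at it was higher by 2.57 ± 0.43 SE, 5.94-fold (limma, adjusted p = 0.0103). The difference of 1.55 ± 0.44 SE at 1416646_at did not pass (limma, adjusted p = 0.093), though it did when only the arrays of these regions were fitted (limma, adjusted p = 0.0302; 0.0289 with the sample number as a block). Of all 35211 probe sets tested, 1.70% were called higher in striatum than in SVZ and 0.611% lower at an adjusted p under 0.05. The call at 1436879_x_at was lost without striatum sample 2 (limma, adjusted p = 0.0787) or SVZ sample 3 (0.050), while that at 1416645_a_at held in 14 of 14 alternative settings, with adjusted p from 0.00012 to 0.0357.

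Striatal and SVZ spheres together were set against embryonic forebrain spheres. The same limit from the choice of the gene applies to these adult arrays. Afp was higher in the adult spheres by 1.82 ± 0.32 SE at 1416645_a_at (limma, adjusted p = 0.000705, at least 2.63-fold) and by 1.46 ± 0.34 SE at 1436879_x_at (limma, adjusted p = 0.00417, 2.75-fold). At 1416646_at the difference of 0.86 ± 0.35 SE did not pass (limma, adjusted p = 0.0647), and it was 1.27 with an adjusted p of 0.0112 without ventral sample 2. With the sample number as a block and only these arrays fitted, the calls stayed the same. The differences were then 1.94 at 1416645_a_at, 1.62 at 1436879_x_at and 0.92 at 1416646_at (limma, adjusted p = 0.00225, 0.0125 and 0.113). Detection by 1416645_a_at on these adult arrays was striatal in 3 of 3 cases, so the mean of both regions rests on striatum. In this comparison 21.5% of tested probe sets were called higher in adult spheres and 17.1% lower, a background in which such a call is common.

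Dorsal and ventral forebrain spheres did not differ detectably. The dorsal minus ventral difference was -0.07 ± 0.50 SE at 1416645_a_at and -0.70 ± 0.54 SE at 1416646_at, where neither group was detected, and -0.05 ± 0.52 SE at 1436879_x_at (limma, adjusted p = 1 for each). With the sample number as a block, the adjusted p was 0.984, 0.775 and 0.99 in the same order (limma). Only 0.0398% of all tested probe sets were called in either direction, 14 in number, with 2 arrays a group. The sign of these differences changed with the array left out.

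**Figure D2:**
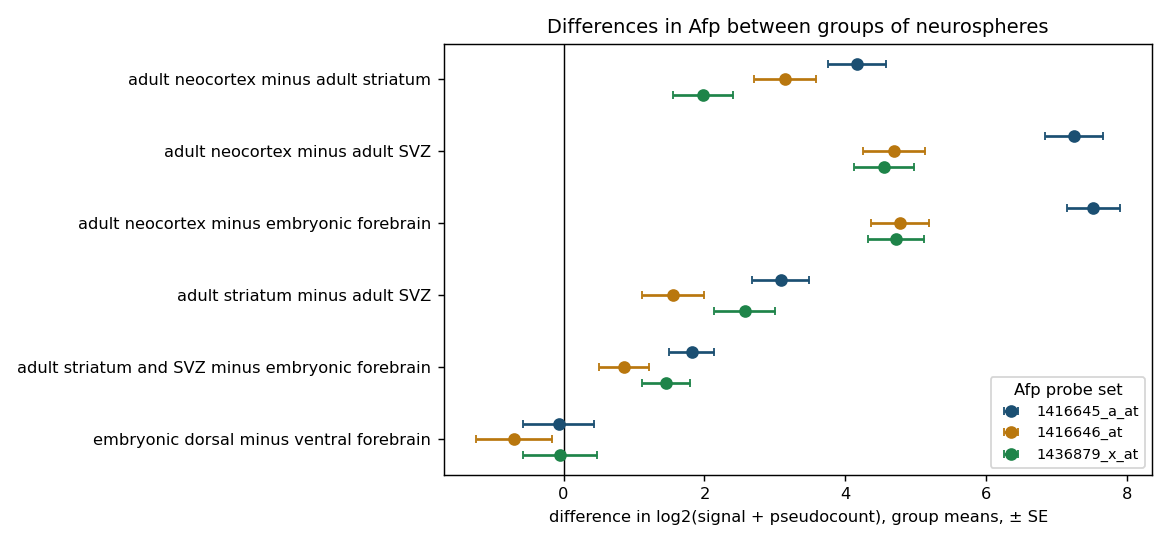
Differences in log2(signal + pseudocount) between group means for the 3 Afp probe sets, with SE from the fit over 14 arrays. The contrasts with neocortex lie from 1.98 to 7.52, those of striatum with SVZ from 1.55 to 3.08, and the dorsal minus ventral differences lie near 0 against their SE.

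Spinal cord spheres were measured once, so they have no replicate check. Afp stood at 650.8 at 1416645_a_at and at 491.4 at 1436879_x_at, above the highest striatal arrays (390.0 and 446.2) and below the lowest neocortical arrays (3648.3 and 998.4). No embryonic forebrain array came near these values at those probe sets. The signal at 1416646_at was 64.8 and not detected (detection p 0.246). There it lay below all striatal arrays (107.1 to 159.3) and below ventral forebrain sample 2 (102.6, not detected).

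The albumin gene family did not share the Afp pattern. Alb, which encodes serum albumin, had group means from 29.9 to 78.1 and was detected on 2 of 14 arrays, 1 neocortical and 1 dorsal. Its neocortex minus SVZ difference was -0.06 ± 0.58 SE (limma, adjusted p = 0.964). Afm, which encodes afamin, a vitamin E binding member of the family, was detected on 0 of 14 arrays. Gc has no probe set with a single symbol in the annotation used and is unnamed here.

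Beyond Alb and Afm, the nearest genes in the RefSeq order were examined after the Afp values were known. Among the 5 genes on each side, 6 had a tested probe set, and 0 of these were called between neocortex and SVZ or between neocortex and striatum. Over all tested probe sets 4.30% were called higher and 6.21% lower against SVZ, and 0.417% and 0.0540% against striatum. Beside such shares, 0 calls among 6 genes is no result about these neighbours. The genes with no tested probe set were Afm, Albfm1, Rassf6 and Ppbp.

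The listed regulators of Afp were measured in the same spheres. In neocortex against SVZ, 4.30% of all tested probe sets were called higher in neocortex and 6.21% lower, and in neocortex against striatum 0.417% higher and 0.0540% lower. The median difference over all tested probe sets was -0.16 for neocortex against SVZ after centring, 0.05 for values as deposited and -0.03 after quantile normalization. Of 103 tested genes on the lists, Afp left out, 22 were higher and 13 lower in neocortex than in SVZ, and 7 higher and 0 lower than in striatum. With the sample number as a block the latter counts were 23 and 6. The shares above belong to the fit without the block. Over the alternative settings, the block among them, calls over all probe sets ran from 57 to 1359 for neocortex against striatum. Counts with the block can therefore not be read against these shares.

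None of the 3 measured repressors of Afp passed either neocortical test. Beside the shares over all tested probe sets given above, the lack of calls in so few genes is no result about them. Zhx2, which represses Afp in adult mouse liver, averaged 2510 ± 535.7 on neocortical, 2139 ± 314.7 on striatal and 3275 ± 410.8 on SVZ arrays (SD, n = 3 each). Its ranges in neocortex (2160 to 3127) and striatum (1935 to 2502) overlapped. The difference to SVZ was -0.60 ± 0.30 SE (limma, adjusted p = 0.215) and to striatum 0.12 ± 0.30 SE (limma, adjusted p = 0.945). Zbtb20, a zinc finger repressor of Afp in liver, stood at 8886 ± 776.1, 7064 ± 1033 and 10630 ± 571.7 in the same order. Neocortex minus SVZ was -0.47 ± 0.20 SE for Zbtb20 (limma, adjusted p = 0.148), and neocortex minus striatum 0.24 ± 0.20 SE (limma, adjusted p = 0.781). Of its 8 other tested probe sets, 5 had the opposite sign against striatum and 1 against SVZ, and 0 were called in the direction shown. When only neocortex and SVZ were fitted, both genes passed as lower in neocortex, with adjusted p of 0.0467 for Zhx2 and 0.0171 for Zbtb20.

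Zfhx3, known as ATBF1 and a repressor acting on the Afp enhancer and promoter, had means of 3714 ± 1024, 3220 ± 518.8 and 2426 ± 426.7 in neocortex, striatum and SVZ. It did not pass against SVZ (0.37 ± 0.36 SE, limma, adjusted p = 0.545) or striatum (0.08 ± 0.36 SE, limma, adjusted p = 0.969). Its highest signals were in ventral forebrain, 11110 on average, and in spinal cord, 18850. The 3 repressors were detected on all 14 arrays.

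Of the 12 listed hepatic activators, 6 were tested and 0 were called in either neocortical comparison. Over all tested probe sets 4.30% were called higher and 6.21% lower against SVZ, and 0.417% and 0.0540% against striatum. Beside such shares, 0 calls among 6 genes is no result about these activators. Cebpa, a C/EBP factor of liver, fat and myeloid cells, averaged 2627 on neocortical, 2035 on striatal and 2346 on SVZ arrays, and 267.9 and 298.4 in dorsal and ventral forebrain. The related Cebpb had means of 2848, 2800 and 4216 in the adult regions. Both factors were detected on every adult array. Nr5a2, a nuclear receptor that activates Afp in liver, had means of 182.9, 117.8 and 42.4 with wide ranges, 40.2 to 306.3 in neocortex. Its other 2 tested probe sets had the opposite sign in both neocortical comparisons and were not called either. Gata4 and Gata6, zinc finger factors of endoderm, were detected on 2 and 4 of 14 arrays, none of them neocortical or striatal, with group means from 58.0 to 106.8 and from 32.2 to 71.4. Ctnnb1, which encodes beta-catenin, stood between 29760 and 35720 in all groups. Hnf4a and Foxa2 were detected on 0 arrays, and Foxa1, Foxa3 and Onecut1 on 1 array each, which for Foxa1 (248.0) and Onecut1 (863.1) was the spinal cord array.

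Among genes that rise with Afp in mouse liver when Zhx2 is low, Lpl followed Afp and Gpc3 did not. Lpl, which encodes lipoprotein lipase, averaged 15960 ± 4905 on neocortical, 3332 ± 1223 on striatal and 586.2 ± 116.5 on SVZ arrays (SD, n = 3 each), with no overlap between regions. It was higher in neocortex than in SVZ by 4.46 ± 0.39 SE (limma, adjusted p = 3.09e-05, 22.1-fold) and than in striatum by 2.18 ± 0.39 SE (limma, adjusted p = 0.0269, 4.54-fold). The call against striatum was lost in 5 of the settings that left out 1 array, with adjusted p from 0.0558 to 0.186. Unlike Afp, Lpl was detected in all embryonic forebrain spheres, with means of 4883 in dorsal and 2694 in ventral. Gpc3, a heparan sulphate proteoglycan of fetal tissues, had means of 175.9, 131.3 and 139.4 in the adult regions and 13330 in spinal cord, and passed neither test. H19 is unnamed here.

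Tissue lists for the usual sites of Afp gave 3 calls against SVZ, all of them yolk sac markers. Of the fetal liver secreted protein genes 5 of 14 were tested, with 0 called in either comparison. Beside the shares over all tested probe sets, a lack of calls in so few genes is no result about them. Of 10 yolk sac and visceral endoderm markers 9 were tested, with 2 higher and 1 lower in neocortex than in SVZ and a median difference of 0.61, against -0.16 over all tested probe sets. Against striatum 0 were called, and Dab2 and Hhex passed as higher with the sample number as a block. The higher ones were Dab2, an endocytic adaptor (2.69 ± 0.45 SE, limma, adjusted p = 0.00252), and Hhex, a homeobox gene of early endoderm and blood cells (3.15 ± 0.81 SE, at least 7.24-fold, limma, adjusted p = 0.0269). Dab2 and Hhex are also expressed by macrophages or blood cells. The lower one was Sox7, which marks endoderm and endothelium (-2.02 ± 0.54 SE, limma, adjusted p = 0.0314). The calls of Hhex and Sox7 were lost in 5 and 6 of 14 settings.

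Genes of the ligands that alpha-fetoprotein carries were also listed. Of 6 genes of oestrogen synthesis and reception 2 were tested, and Gper1, a membrane oestrogen receptor, was lower in neocortex than in SVZ by -1.87 ± 0.48 SE (limma, adjusted p = 0.0263, lost in 4 of 14 settings). The nuclear receptors Esr1 and Esr2 did not reach the test. Of 8 fatty acid and retinoid carriers 7 were tested, and Fabp7, the brain fatty acid binding protein of radial glia, was lower by -0.49 ± 0.14 SE (limma, adjusted p = 0.0455, lost in 9 of 14 settings). Against striatum 0 genes of either list were called, though Gper1 passed as lower with the block (limma, adjusted p = 0.00887). Counts this small in short lists cannot be set apart from the shares over all tested probe sets.

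Markers of cell types were read beside Afp, with their levels as measured and without testing their part in the Afp signal. In bulk arrays, more cells of a type and more RNA per cell cannot be told apart. Of 12 measured neural stem and progenitor markers, 12 were detected in each adult region and in dorsal forebrain, and 11 in ventral forebrain and in spinal cord, where Gfap was not. Nes, the intermediate filament nestin, averaged 6631 on neocortical, 11710 on striatal and 13950 on SVZ arrays. Nes was lower in neocortex than in SVZ (-1.26 ± 0.23 SE, limma, adjusted p = 0.00434), and so were 5 others of the 12 tested, with 0 higher. Hes5, a Notch target of neural stem cells, was among them at 436.0 in neocortex and 1482 in SVZ (-1.90 ± 0.23 SE, limma, adjusted p = 0.000312). Against striatum 0 of these were called, near the share over all tested probe sets, though Nes passed with the sample number as a block (limma, adjusted p = 0.00231).

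The microglia and macrophage markers moved with Afp. All 17 listed genes were tested, and 13 were higher in neocortex than in SVZ and 0 lower, with a median difference of 4.69 against -0.16 over all tested probe sets. Against striatum 6 were higher and 0 lower (14 with the block), with a median of 2.49 against -0.10. Trem2 was detected on 2 neocortical arrays and no other, and C1qa and Itgam on 3 neocortical arrays and 1 other. These genes thus met the filter of detection on at least 2 arrays only through neocortex. Trem2 and C1qa are among those called against SVZ, and Trem2 also against striatum (limma, adjusted p = 0.0487). Between striatum and SVZ 4 were higher in striatum and 0 lower (9 with the block). The counts with the block have no share over all probe sets beside them. For striatum against SVZ, calls over all probe sets ran from 82 to 4837 over the settings. The summed signal of the 17 probe sets was 90630 to 128800 on neocortical arrays, 12650 to 22520 on striatal arrays and 2490 to 3268 on SVZ arrays. The regions did not overlap, in the same order as Afp. This order was not particular to macrophage markers. Summed oligodendrocyte markers showed it without overlap (121300 to 156200, 86350 to 106900 and 43650 to 49080). So did summed yolk sac markers (5182 to 8439, 2874 to 3724 and 1566 to 2408). Summed neural stem and mature astrocyte markers had the reverse order, also without overlap. The part of macrophage RNA in the Afp signal was not tested.

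Csf1r, the receptor on which microglia depend, had signals of 5074 ± 1026 in neocortex and 861.9 ± 577.4 in striatum and was not detected in SVZ at 26.2 ± 20.2 (SD, n = 3 each). Its excess in neocortex over SVZ was at least 81.1-fold (6.42 ± 1.26 SE, limma, adjusted p = 0.0068), while the difference from striatum did not pass (limma, adjusted p = 0.582, and 0.000698 with the block). Tyrobp, a signalling adaptor of myeloid cells, had means of 21330, 3638 and 226.4 (6.29 ± 0.69 SE for neocortex against SVZ, limma, adjusted p = 0.000143). C1qb, a chain of complement component C1q, had means of 6821, 1180 and 66.9 (5.96 ± 1.20 SE, limma, adjusted p = 0.00801). For each of these genes the striatal arrays lay between the other regions. Markers tied to resting microglia, namely P2ry12, Tmem119 and Cx3cr1, and the integrin gene Itgam, were not called in either neocortical comparison.

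The embryonic arrays varied widely in macrophage markers. The summed marker signal was 1039 and 9723 in dorsal samples 1 and 2, 1155 and 6403 in ventral samples 1 and 2 and 16280 in spinal cord. Csf1r reached 1709 on 1 dorsal and 842.7 on 1 ventral array and 4374 in spinal cord, a level within the neocortical range of 3977 to 6009. Set beside these sums, Afp in dorsal sample 2 was above sample 1 at each of the 3 probe sets (2.7 against 1.1, 17.9 against 11.8 and 43 against 12.2). Ventral sample 2 was above sample 1 at 1416646_at (102.6 against 12.5) and below it at 1416645_a_at (1.4 against 9.0) and 1436879_x_at (9.3 against 63.2). No forebrain array was detected at 1416645_a_at (detection p 0.568 to 0.951) or at 1416646_at (0.171 to 0.774). At 1436879_x_at 1 of 2 arrays of each forebrain region was detected. Differences among signals this near background cannot be read as following the sums. All these forebrain signals lay below the lowest striatal array of their probe set, and spinal cord lay below the neocortical range at each. Mmp12, a macrophage elastase, had averages of 23670 on neocortical, 2648 on striatal and 10.1 on SVZ arrays and was detected on no embryonic array. The excess of neocortex over SVZ was at least 440-fold (9.09 ± 0.45 SE, limma, adjusted p = 6.46e-07) and that over striatum 9.18-fold (3.20 ± 0.45 SE, limma, adjusted p = 0.00563). The call against striatum was lost with the smaller pseudocount (limma, adjusted p = 0.0806) and without neocortex sample 3 (0.0526). In spinal cord, where Afp stood at 650.8 at 1416645_a_at, Mmp12 stood at 5.9.

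Other cell type lists gave mixed counts in neocortex against SVZ. Of 8 tested oligodendrocyte lineage markers 4 were higher and 0 lower, including Mog, a myelin glycoprotein, with means of 14780, 7817 and 552.4 in neocortex, striatum and SVZ (4.54 ± 0.61 SE, limma, adjusted p = 0.000569). Mag, another myelin glycoprotein, was higher by 3.55 ± 0.29 SE (limma, adjusted p = 2.16e-05). Among 6 mature astrocyte markers 1 was higher and 3 lower. S100b, a calcium binding protein of glia, was the higher one (3.74 ± 0.44 SE, limma, adjusted p = 0.000262), and Aqp4, the water channel of astrocytes, was lower (-3.92 ± 0.77 SE, limma, adjusted p = 0.00692). Of 7 neuron markers 1 was higher, of 7 endothelial and mural markers 0 were called, of 7 meningeal and fibroblast markers 1 was lower, and of 6 ependymal and choroid plexus markers 1 was lower. For these last lists, counts so small cannot be set apart from the shares over all tested probe sets. Against striatum 0 genes of the lists in this paragraph were called, near the share over all tested probe sets. With the sample number as a block, 4 oligodendrocyte markers were higher there, 1 astrocyte marker higher and 3 lower, and 1 endothelial marker higher and 1 lower. No share over all probe sets with the block stands beside these counts.

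**Figure D3:**
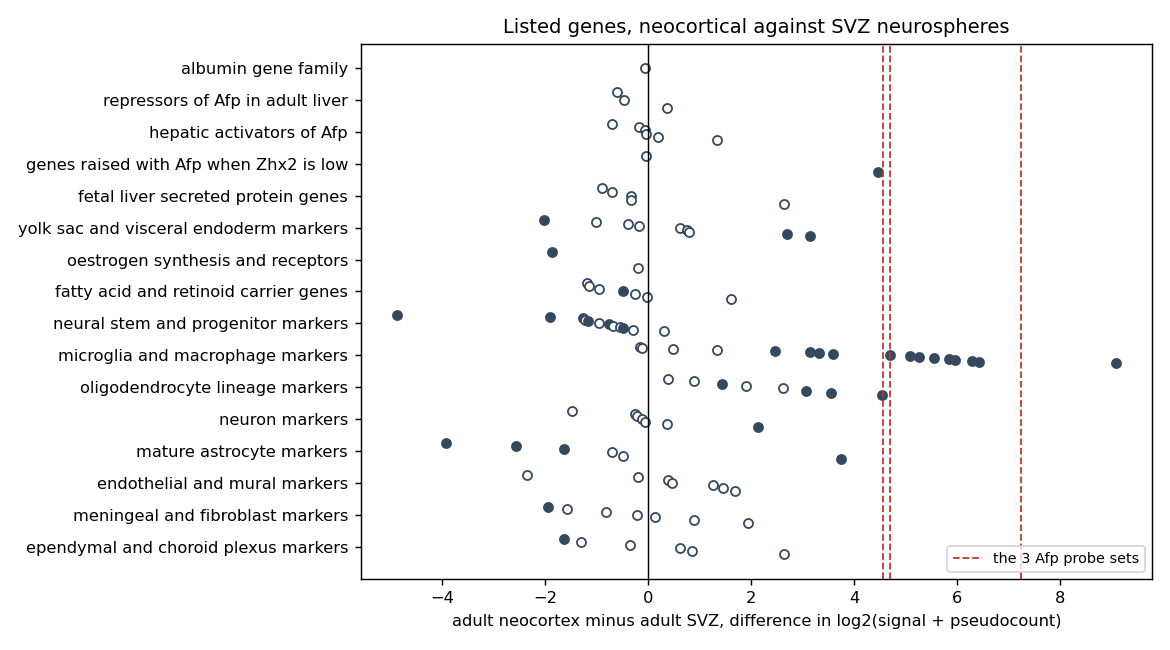
Neocortex minus SVZ differences in log2(signal + pseudocount) for the tested genes of each list; filled points passed the test, open points did not, and dashed lines mark the 3 Afp probe sets (4.55, 4.69 and 7.24). Most microglia and macrophage markers lie at or beyond 2.47, while the repressors and activators of Afp lie between -0.71 and 1.33.

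The genes whose pattern was most like that of 1416645_a_at were ranked by Pearson's r on the log2 scale, among tested probe sets with 1 gene symbol. The arrays fall into groups by region and share RNA and labelling with Afp, so r is a description. Over 14 arrays the first 10 were Ms4a7, Plxdc2, Cybb, Fabp4, Clec4n, Fcgr3, Msr1, Ms4a6d, 9630013A20Rik and Pycard, with r from 0.950 to 0.962. Cybb, the catalytic subunit of the phagocyte NADPH oxidase, averaged 6216 on neocortical, 570.5 on striatal and 32.6 on SVZ arrays, and 247.9 in spinal cord. Ms4a7, a membrane protein gene of macrophages, had means of 3319, 337.9 and 64.6, and 363.0 in spinal cord. The spinal cord value lay within the striatal range for Ms4a7 and below it for Cybb, while that of Afp at 1416645_a_at lay above it.

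Over the 9 adult arrays the first 10 were Gpnmb, Ms4a6d, Cd36, Hk3, Mrc1, Fcer1g, Plek, Msr1, Fcgr3 and Anpep, with r from 0.988 to 0.995. Hk3 was detected on the 3 neocortical arrays and no other. Gpnmb, a membrane glycoprotein of macrophages and pigment cells, had means of 27440, 3891 and 1034 in neocortex, striatum and SVZ, and 29.6 and no detection in spinal cord. Fcer1g, the common Fc receptor gamma chain of myeloid cells, had means of 6121, 631.9 and 128.2. Of the 17 genes in either ranking, 3 stood in both, Fcgr3, Ms4a6d and Msr1. An r over 0.8 with Afp was reached by 1.21% of tested probe sets over 14 arrays and by 4.31% over the adult arrays. Among the 17 macrophage markers the share was 52.9% and 76.5%, and among the 12 neural stem markers it was 0.0% in both, with a median r of -0.81 over the adult arrays. Afp was picked for its neocortical signal, so genes high in neocortex tend to reach a high r with it, and these shares only describe that. Trem2, C1qa and Itgam, among the macrophage markers, met the detection filter only through neocortex. Of the 8 oligodendrocyte markers 12.5% passed that level over 14 arrays and 87.5% over the adult arrays.

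**Figure D4:**
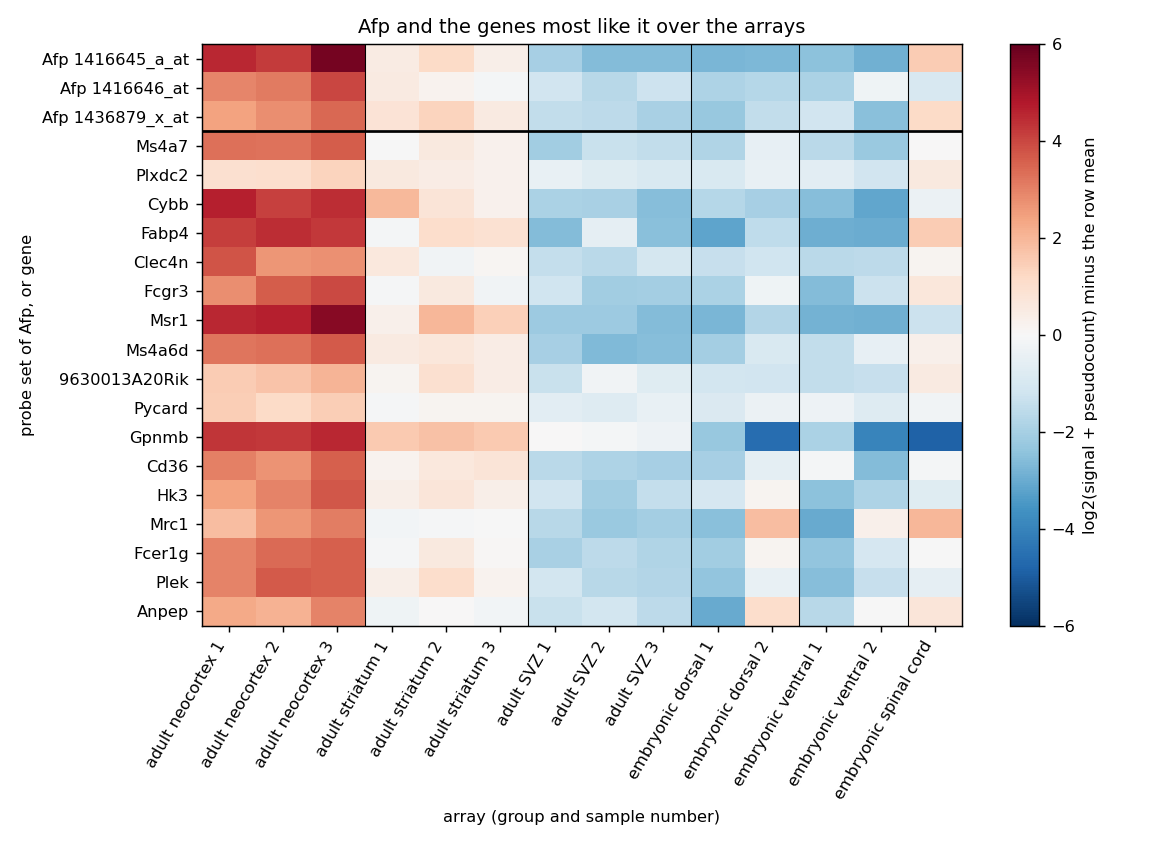
Centred log2 signal of the 3 Afp probe sets (above the line) and of the 17 genes with the most similar pattern, each minus its row mean, on the 14 arrays; red is above and blue below the row mean. The neocortical arrays are highest in each row except where spinal cord or an embryonic array comes near, as for Plxdc2 and Mrc1, and the striatal arrays lie between neocortex and SVZ.

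Array-wide measures were read beside the regional order. The share of probe sets detected ran from 60.2% to 68.6% over the arrays, with spinal cord highest and SVZ lowest, and array medians from 222.1 to 334.8. The Gapdh control probe sets give a 3′ over 5′ signal ratio that rises as RNA is shorter. On the log2 scale it was 1.06 to 1.33 in neocortex, 0.67 to 1.02 in striatum and 0.64 to 0.72 in SVZ. In ventral forebrain it was 1.17 to 1.21 and in dorsal forebrain 1.01 to 1.16. The ratio was thus higher in neocortex than in the other adult regions, and its part in the Afp values was not tested. The labels name no separate animals or cultures behind the samples of a group. The p-values therefore reflect only how far these samples spread, which may be technical, and their small number limits the precision.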

How the data were processed

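RNA of 14 neurosphere samples was measured on one-colour Affymetrix arrays. Per the file headers, the authors deposited linear signal intensity values for each array and, beside them, a detection p-value. For the software, scaling target and background step behind the intensity values, the sources used here give nothing. The series text states a later median normalization in GeneSpring, whose values were not used. Detection columns are headed by array names that show the region but not the sample number of the titles, so detection is given by group, and the 14 signal columns of that table were not used. Of 45101 probe sets, the annotation gives 34958 a single gene symbol, 932 several and 9211 none.

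Signals were taken as log2(signal + 27), 0.1 times the median array median, and each array was centred on its median. Probe sets detected at p under 0.05 on at least 2 arrays were tested (35211), without 64 control probe sets. One model with 6 group means over 14 arrays was fitted with limma 3.58.1 in R 4.3.3 (eBayes with trend, two-sided, Benjamini-Hochberg over all tested probe sets), called at an adjusted p under 0.05. On simulated data, with 200 of 35211 probe sets changed, the fit recovered 58% of 4-fold and 17% of 2-fold changes between striatum and SVZ, with 3 false calls. The changed probe sets excluded those of largest spread. The simulated noise was independent between arrays, with no shared effect of an array or sample number. These figures may therefore be better than the real data allow. A gene is represented by its probe set with the highest mean signal.

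Whether sample numbers pair the samples was examined through deviations from group means, correlated over probe sets between samples of 1 number. The correlation was 0.25, 0.11 and 0.11 for neocortex with striatum, at least 0.03 for neocortex with SVZ, 0.05 to 0.15 for striatum with SVZ, and 0.58 for both dorsal with ventral pairs. The first and the last are over 0.1 throughout, so the fit with the sample number as a block is printed beside those comparisons where it matters. The main fit treats dorsal and ventral samples of 1 number as separate, though they are thus linked. The sample labels state no pairing. The array names carry a number that is shared by 1 array of each adult region, and another shared by 1 dorsal and 1 ventral array, and what it marks is not stated.

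Named genes were the Afp probe sets, members of the albumin, repressor, activator and Zhx2-linked lists (values for detected ones), up to 4 called members of each other list, defining markers, and the 10 genes most correlated with Afp over all and over adult arrays. The gene, the lists and this rule were chosen with earlier results of these data known. The promoter sequences are from RefSeq (GRCm38.p6).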

Additional observations from a re-analysis of the deposited data

How the results depend on the processing

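The alternatives were no centring, quantile normalization, a pseudocount of 5.4 or 135.0, no detection filter, only the arrays compared, the replicate block with only those arrays, array weights, and leaving out each array. The Afp excess in neocortex stayed in direction under each that was run. Against SVZ it was 8.93 and 5.20 with the smaller and larger pseudocount, and against embryonic forebrain 9.35 and 5.36, since SVZ and forebrain signals lie below the pseudocount. Against striatum it ran from 3.70 to 4.47 when 1 array was left out. The dorsal minus ventral difference has no settled sign. It was 0.02 with the larger pseudocount, and leaving out 1 array gave -0.28 to 0.14 at 1416645_a_at, -1.52 to 0.12 at 1416646_at and -0.74 to 0.65 at 1436879_x_at, with reversals of 0.35 and 0.65 at the last. The cause was not tested.

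Of the listed genes, 35 were called between neocortex and SVZ, 56 with only the arrays compared and 59 with the replicate block. Between neocortex and striatum 7 were called, 4 with the smaller pseudocount, 17 with only the arrays compared, 29 with the block, 12 with array weights and 3 to 5 without 1 array. The macrophage markers called there were 6, and 3 to 14 over the settings. The uncalled neocortex minus striatum differences of Zhx2 and Zfhx3 ran from -0.04 to 0.21 and from -0.10 to 0.29 without 1 array. Over all probe sets, neocortex against SVZ gave 3703 calls (1691 to 7152 over the settings), neocortex against striatum 166 (57 to 1359), striatum against SVZ 814 (82 to 4837) and dorsal against ventral forebrain 14 (0 to 201). The lowest count without 1 array came without neocortex sample 3 for the first comparisons (1691 and 57) and without striatum sample 2 for striatum against SVZ (82). The replicate block gave adjusted p of 0.00224 (limma) for Afp at 1416645_a_at between striatum and SVZ and 0.0029 at 1436879_x_at, and changed the call at 1416646_at as given. Signals near background limit what the SVZ and forebrain values can show.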
